A study of Mus musculus with 48 samples.

Results

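The genes followed here encode 9 surface proteins with which a macrophage senses complement and antibody. For complement these are the anaphylatoxin receptors C3ar1 and C5ar1 and the integrin chains Itgam and Itgb2. For antibody they are the Fc gamma receptors Fcgr1, Fcgr2b, Fcgr3 and Fcgr4, and Fcer1g, the signalling chain of the activating ones. The 9 genes were chosen by symbol, of 54735 genes counted. All 9 were among the 17080 genes that passed the filter on low counts. Reads per gene were counted in 48 RNA-seq libraries of macrophages from the livers of male C57BL/6 mice that received acetaminophen (APAP), a drug that kills hepatocytes at high dose, or PBS. Kupffer cells (KCs), macrophages that reside in the sinusoids of the liver, were taken 6, 12, 24, 36, 48, 72, 96, 120 and 168 h after APAP, with 4 libraries at each time, and 0 and 24 h after PBS, with 2 libraries each. LAM-like KCs, named after the lipid-associated macrophage (LAM), were taken 36 and 48 h after APAP, with 4 libraries at each time. The labels give no dose, no age, no criterion that set LAM-like KCs apart and no animal for a library, so that p-values reflect sample-to-sample spread, which may be technical. No allele or transgene is labelled in any of the 13 groups.

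Complement activation on dying cells releases the fragments C3a and C5a, which signal through the G protein-coupled receptors C3AR1 and C5AR1. Fixed C3 fragments are bound by complement receptor 3, made of the integrin chains ITGAM (CD11b) and ITGB2 (CD18), whereas KCs also take up C3-coated particles through VSIG4. Antibody-coated particles engage Fc gamma receptors, of which FCGR1, FCGR3 and FCGR4 activate the cell through the ITAM of the FCER1G chain, and FCGR2B inhibits it through its own ITIM. Together they let KCs clear opsonized particles from the blood of the sinusoid.

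Of the 9 genes, 4 lie on chromosome 1 and are listed here by their positions on mm10 in the GENCODE M21 annotation. Fcgr2b spans chr1:170958617-170976547 on the minus strand, Fcgr4 chr1:171018920-171029761 on the plus strand, Fcgr3 chr1:171051174-171064935 on the minus strand and Fcer1g chr1:171229572-171234365 on the minus strand. Fcgr1 lies on chr3:96282909-96293969, C3ar1 on chr6:122847138-122856161 and C5ar1 on chr7:16246743-16259540, all on the minus strand. Itgam lies on chr7:128062640-128118491 and Itgb2 on chr10:77530252-77565708, both on the plus strand. RefSeq promoter windows (GRCm38.p6, 250 bases before to 50 after a start site) were matched for 8 of the 9 genes, and 6 of them held a searched motif in the last 120 bases before the start site. These 120 bases are shown 5′ to 3′ on the strand of each gene, as the sequence next to the start site of genes whose RNA rose or fell. Capitals mark exact matches on either strand to GAGGAAG (PU.1 type), TGAGTCA (AP-1 type), TTCNNNGAA (STAT type) or GAAANNGAA (interferon response type).
C3ar1, chr6:122856158-122856277, minus strand: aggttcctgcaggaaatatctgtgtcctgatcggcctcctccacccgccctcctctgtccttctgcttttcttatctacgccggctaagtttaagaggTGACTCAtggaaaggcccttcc
C5ar1, chr7:16259339-16259458, minus strand: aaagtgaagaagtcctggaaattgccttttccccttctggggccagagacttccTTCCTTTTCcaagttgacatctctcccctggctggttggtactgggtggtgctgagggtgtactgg
Itgam, chr7:128062520-128062639, plus strand: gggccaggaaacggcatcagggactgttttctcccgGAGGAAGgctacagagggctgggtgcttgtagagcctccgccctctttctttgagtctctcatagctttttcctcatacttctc
Fcgr1, chr3:96293970-96294089, minus strand: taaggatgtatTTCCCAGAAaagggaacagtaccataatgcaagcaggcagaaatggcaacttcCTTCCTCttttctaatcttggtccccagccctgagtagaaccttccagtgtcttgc
Fcgr3, chr1:171059404-171059523, minus strand: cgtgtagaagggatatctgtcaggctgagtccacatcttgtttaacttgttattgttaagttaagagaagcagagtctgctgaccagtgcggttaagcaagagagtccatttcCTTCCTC
Fcgr4, chr1:171018806-171018925, plus strand: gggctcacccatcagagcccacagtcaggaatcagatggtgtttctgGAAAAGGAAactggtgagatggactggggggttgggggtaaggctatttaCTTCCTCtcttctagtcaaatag

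The PU.1 type motif, named for a factor that directs macrophage genes, stood in the windows of the 3 activating receptor genes Fcgr1, Fcgr3 and Fcgr4 and of Itgam. It is present in 13.6% of the 32851 promoter windows of the RefSeq table. The AP-1 type motif, found in 5.2% of windows, stood in C3ar1. The STAT type motif, found in 8.3%, stood in Fcgr1, and the interferon response type, found in 8.56%, in Fcgr4 and C5ar1. A C/EBP type motif (TTGCGCAA or TTGCACAA, 1.19% of windows) matched in none of the 8 genes, and no searched motif matched in Fcgr2b or Fcer1g. These are matches of letters and no measure of binding.

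Between 15885336 and 26058698 reads per library were counted in genes, and levels are given as CPM, a gene's counts relative to the TMM-scaled size of its library. The 10 KC markers summed to 19324 to 53894 CPM, and none was without reads (Clec4f from 3725 to 19437 CPM, Vsig4 from 1672 to 4717 CPM). Of 7 LAM markers 2 were higher in LAM-like KCs than in KCs at 36 h and 5 at 48 h. Hepatocyte marker RNA ranged from 245 to 14781 CPM over 10 genes and stellate cell marker RNA from 8.59 to 886 CPM over 8 genes, the former with the lowest group means in LAM-like KCs. Monocyte markers summed to 63.5 to 1199 CPM, of which Ly6c2 reached at most 1.13 CPM. Neutrophil markers summed to 36.6 to 181 CPM, largely Csf3r, with no read for Ly6g. Headers number the libraries through the series, and the numbers up to 25 (25 libraries) and above (23 libraries) are called set 1 and set 2. All of PBS 24 h belongs to set 1 and all of PBS 0 h to set 2. KCs at 12 h have replicates 1 to 3 in set 1 and replicate 4 in set 2, and the other APAP groups have replicates 1 and 2 in set 1.

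Per kilobase of exon, the scale on which genes can be set beside each other, the 4 PBS libraries held most Fcer1g, at 1325 ± 98.3 CPM per kb (SD, n = 4). Of the ligand-binding Fc receptors, Fcgr3 stood at 531 ± 66.8, Fcgr4 at 339 ± 45.7 and Fcgr1 at 122 ± 11.7 CPM per kb, while the inhibitory Fcgr2b stood at 2.39 ± 0.94. The anaphylatoxin receptors were close to each other, with C3ar1 at 105 ± 22.7 and C5ar1 at 92.9 ± 16.1 CPM per kb. The integrin chains were far apart, Itgb2 at 169 ± 12.7 and Itgam at 6.28 ± 0.58 CPM per kb. In the annotation, 66.3% of 50-base stretches of Itgam exons are shared with the overlapping same-strand gene Gm49368, for which 7 reads were counted in all 48 libraries, and how reads of shared exons were assigned is not given in the sources used here. The level of Itgam may therefore be understated, and its changes rest on 267 to 2522 reads per library. Shared stretches made up 9.58% of Fcgr3, 6.95% of Fcgr2b, 1.05% of Itgb2 and 0% of the other 5 genes.

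Differences were tested with edgeR's quasi-likelihood test on all 48 libraries, and a gene is called where its Benjamini-Hochberg adjusted p, taken over all 17080 genes, is below 0.05. KCs after APAP were set against the mean of both PBS groups, so these comparisons share their 4 control libraries. Over the 11 KC groups together, 8 of the 9 genes varied, where 54.1% of all genes did. Fcgr2b was the exception, with an adjusted p of 0.833. The PBS groups did not differ in any member (0 of 9, also 0 at an unadjusted p below 0.05 and 0 by DESeq2), beside 0.0527% of all genes, and with 2 libraries each that comparison is coarse. In bulk libraries, fewer cells of a type and less RNA per cell cannot be told apart.

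C5ar1, the receptor that draws phagocytes toward C5a, had the widest span of group means of the 9 genes (10.3-fold), whereas over single libraries Fcgr2b spanned more (2.14 to 85.5 CPM against 65.9 to 1921 CPM). Its level was 230 and 228 CPM at PBS 0 h and 200 and 297 CPM at PBS 24 h. At 6 h after APAP it was 944, 1199, 1080 and 1084 CPM, so that the lowest APAP library lay far above the highest PBS library. That is a log2 fold change of 2.17 ± 0.37 (SE) with an edgeR adjusted p of 8.61e-05. At 12 h it was 1921, 1692, 1309 and 576 CPM, above every PBS library but with the set 2 library, replicate 4, the lowest (log2 fold change 2.53 ± 0.38, edgeR adjusted p = 6.50e-06). In set 1 the 12 h change was 2.69, and for the lone set 2 library against PBS 0 h it was 1.33, with an edgeR adjusted p of 0.147.

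At 24 h C5ar1 was 894 and 663 CPM in set 1 but 284 and 285 CPM in set 2, and the set 2 libraries lay within the PBS range. The pooled log2 fold change was 1.15 ± 0.36 (edgeR adjusted p = 0.0147), made of 1.61 within set 1 and 0.31 within set 2 (adjusted p = 0.705). The 24 h call was kept without 3 of the 8 libraries left out in turn and lost without KC 24 h replicate 1 (0.78, adjusted p = 0.125) or 2 (1.03, 0.0538), PBS 0 h replicate 1 (1.13, 0.0548) or 2 (1.12, 0.0645), or PBS 24 h replicate 1 (1.0, 0.0970). By 36 h C5ar1 was 228, 158, 143 and 147 CPM and by 48 h 170, 190, 65.9 and 107 CPM. These levels lay within or below the PBS range, and neither difference was called (log2 fold change at 48 h -0.84 ± 0.36, adjusted p = 0.194). From highest to lowest, group means ran 1374 CPM at 12 h, 1076 at 6 h, 531 at 24 h and 439 in LAM-like KCs at 36 h. All other groups had means from 133 to 248 CPM, and each overlapped its neighbours among them in the order.

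C3ar1, the receptor of C3a, was higher than PBS at 12 h and lower at 36 and 48 h. PBS libraries had 437 and 594 CPM at 0 h and 403 and 376 CPM at 24 h. At 6 h C3ar1 was 453, 595, 761 and 649 CPM, which overlapped PBS and was not called (log2 fold change 0.46 ± 0.17, edgeR adjusted p = 0.0651). At 12 h it was 942, 930, 753 and 604 CPM, each above every PBS library (log2 fold change 0.85 ± 0.17, edgeR adjusted p = 0.000361). Within set 1 this change was 1.13, and for the lone set 2 library it was 0.23 with an adjusted p of 0.596. At 24 h set 1 held 695 and 627 CPM and set 2 held 400 and 342 CPM, a log2 fold change of 0.73 within set 1 (adjusted p = 0.00101) against -0.48 within set 2 (adjusted p = 0.0733), and the pooled change of 0.20 was not called.

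At 36 h C3ar1 was 219, 214, 174 and 196 CPM, all lower than every PBS library and the lowest group of the 13. The log2 fold change was -1.16 ± 0.17 (edgeR adjusted p = 2.49e-06), with -0.85 in set 1 and -1.48 in set 2. At 48 h it was 327, 270, 214 and 295 CPM, still without overlap with PBS (-0.70 ± 0.17, edgeR adjusted p = 0.0138). The 48 h call was lost without KC 48 h replicate 3 (-0.59, adjusted p = 0.0800), PBS 24 h replicate 1 (-0.67, 0.0717) or PBS 0 h replicate 2 (-0.58, 0.149). From 72 h on the group means lay between 426 and 511 CPM, within the PBS range of 376 to 594 CPM. Set beside C3ar1 in the same library, C5ar1 went from a mean log2 ratio of -0.91 ± 0.43 (SD, n = 4) in PBS to 0.83 ± 0.26 at 6 h and 0.65 ± 0.49 at 12 h. It was back at -1.15 ± 0.53 at 48 h, so C5ar1 had more reads than C3ar1 in every library at 6 and 12 h except KC 12 h replicate 4, and fewer in every PBS and 48 h library.

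**Figure D1:**
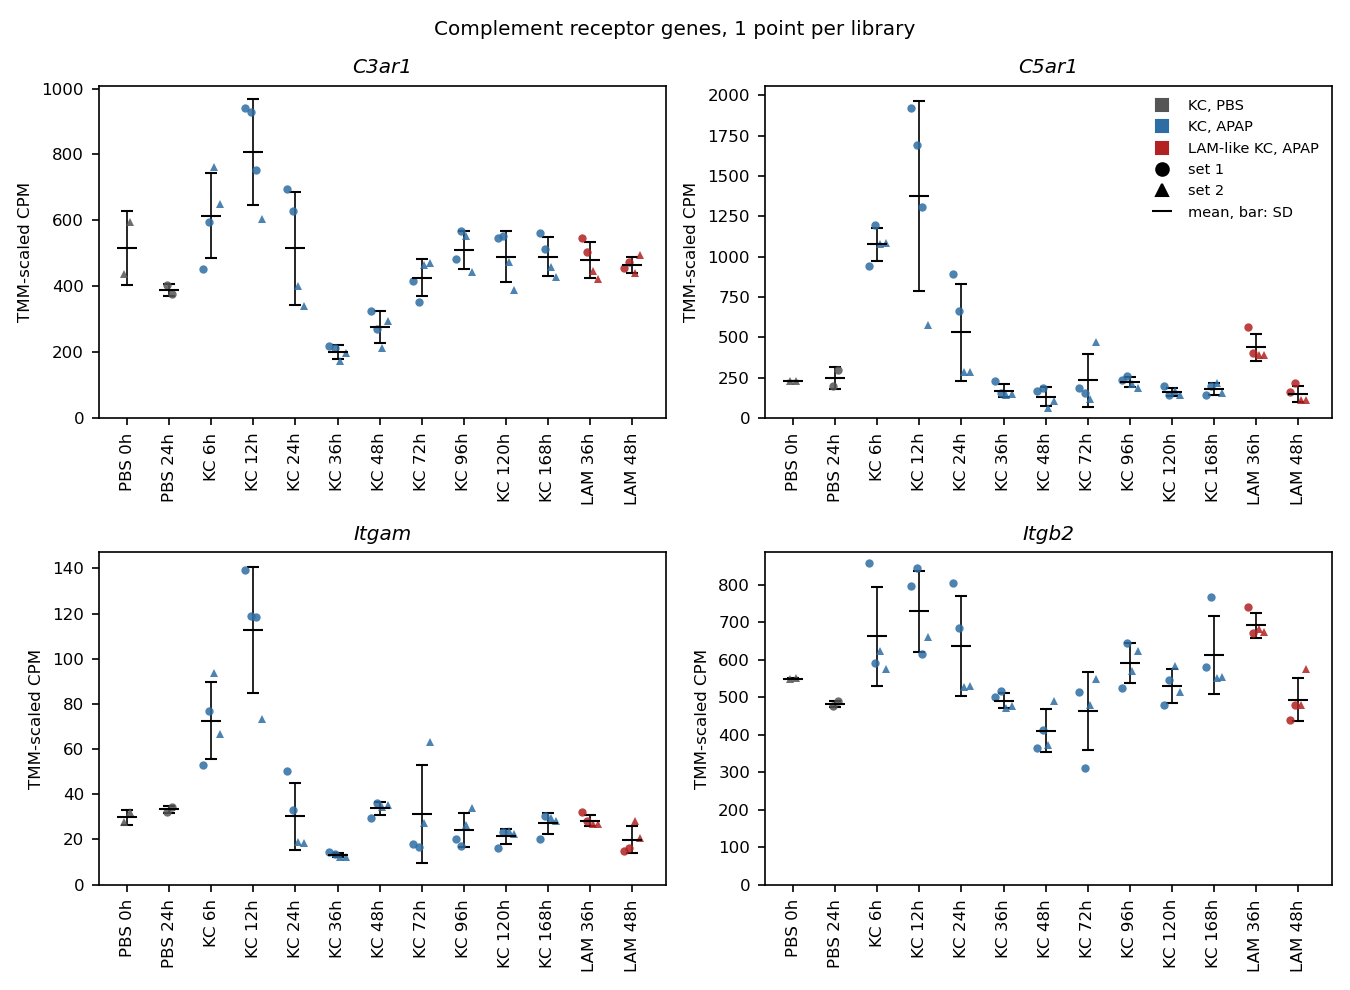
CPM of C3ar1, C5ar1, Itgam and Itgb2 in each of the 48 libraries by group, with circles for set 1, triangles for set 2 and bars for the mean ± SD of a group. C5ar1 and Itgam peak at 12 h, C3ar1 is lowest in KCs at 36 h, and the triangles of C5ar1 at 24 h (284 and 285 CPM) lie below its circles (663 and 894 CPM).

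Itgam, the alpha chain of complement receptor 3, was called higher at 6 and 12 h, as C5ar1 was. PBS libraries held 27.5 and 32.1 CPM at 0 h and 32.1 and 34.5 CPM at 24 h. At 6 h it was 52.9, 77.0, 93.7 and 66.9 CPM (log2 fold change 1.21 ± 0.29, edgeR adjusted p = 0.00369). At 12 h it was 139, 119, 119 and 73.3 CPM (1.84 ± 0.30, adjusted p = 1.83e-05), and in both groups no library overlapped PBS. Each set alone gave the call, with 0.93 and 1.43 at 6 h and 1.88 and 1.30 at 12 h.

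At 24 h Itgam was 50.3, 33.0, 19.0 and 18.4 CPM, on both sides of the PBS range, and again higher in set 1 than in set 2. At 36 h it was 14.3, 13.5, 12.4 and 12.1 CPM, the lowest group of the 13 and below every PBS library (-1.27 ± 0.30, edgeR adjusted p = 0.00115). At 48 h it stood at 29.5, 36.0, 34.3 and 35.5 CPM, which overlapped PBS, and it was not called at any later time.

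Itgb2, the beta chain that Itgam shares with other leukocyte integrins, varied less, from 312 to 859 CPM over all libraries. It was called at 12 h alone among KC times, at 797, 844, 617 and 661 CPM against 477 to 551 CPM in PBS (log2 fold change 0.50 ± 0.14, edgeR adjusted p = 0.0101). The 12 h change was 0.61 within set 1 and 0.27 (adjusted p = 0.340) for the lone set 2 library, and without KC 12 h replicate 2 it was 0.43 (adjusted p = 0.0556). At 36 h, when Itgam was lowest, Itgb2 held 500, 516, 472 and 476 CPM and overlapped PBS (-0.07 ± 0.14, adjusted p = 0.786).

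The alternative partner Itgax (CD11c, the alpha chain of complement receptor 4) was called higher at 12, 24, 36 and 72 h. Its mean rose from 2.17 ± 1.33 CPM (SD, n = 4) in PBS to 8.78 ± 2.68 at 12 h, 16.1 ± 10.1 at 24 h and 11.9 ± 3.26 at 36 h, with log2 fold changes of 2.24 ± 0.51, 3.10 ± 0.52 and 2.67 ± 0.51 (edgeR adjusted p = 0.00128, 1.83e-05 and 0.000106). The log2 ratio of Itgam to Itgax in a library was 4.06 ± 0.86 in PBS, 1.0 ± 0.53 at 24 h and 0.18 ± 0.37 at 36 h. Itgax was 1.05 CPM on average at PBS 0 h and 3.29 CPM at PBS 24 h, a difference that was not called. Its log2 fold change was 1.64 ± 0.75 (edgeR adjusted p = 0.723), and in these controls set and time cannot be told apart. VSIG4, the complement receptor of resident KCs, was encoded by less RNA at 24, 36 and 48 h. Its log2 fold changes were -0.84 ± 0.15, -0.75 ± 0.15 and -0.55 ± 0.15 for Vsig4, each called.

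The activating Fc receptor genes did not move as a block. Fcgr4, the receptor for IgG2 isotypes, was the one called higher at 6 h. It was 509 and 416 CPM at PBS 0 h and 390 and 386 CPM at PBS 24 h. At 6 h it was 909, 884, 813 and 783 CPM, above every library of the other 12 groups (log2 fold change 1.0 ± 0.17, edgeR adjusted p = 7.72e-05; 1.18 in set 1 and 0.79 in set 2). At 12 h it was 384, 391, 400 and 398 CPM, which overlapped PBS, with little spread.

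Fcgr4 then fell below PBS. At 24 h it was 259, 220, 392 and 274 CPM (-0.56 ± 0.17, edgeR adjusted p = 0.0111), with 1 library inside the PBS range, and the call was lost within set 2 (-0.47, adjusted p = 0.0691) and without KC 24 h replicate 2 (-0.46, 0.0690). At 36 h it was 207, 199, 275 and 253 CPM, without overlap (-0.86 ± 0.17, adjusted p = 0.000164). At 48 h it was 182, 208, 275 and 370 CPM (-0.71 ± 0.17, adjusted p = 0.0106), still below every PBS library. That call was lost without KC 48 h replicate 1 (-0.58, adjusted p = 0.0860) or 2 (-0.62, 0.0605) or PBS 0 h replicate 1 (-0.64, 0.0522). Means of 377 CPM at 72 h and 486 to 525 CPM from 96 to 168 h were not called.

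Fcgr3, the low-affinity activating receptor, was called lower at 12, 24 and 36 h, where Fcgr4 was called lower at 24, 36 and 48 h. PBS libraries held 1075 and 908 CPM at 0 h and 911 and 792 CPM at 24 h. At 6 h it was 1676 and 1450 CPM in set 1 and 1121 and 908 CPM in set 2, a log2 fold change of 0.49 ± 0.17 that missed the threshold (edgeR adjusted p = 0.0501), with 0.84 (adjusted p = 0.00116) in set 1 and 0.03 (adjusted p = 0.932) in set 2. At 12 h it was 547, 591, 659 and 519 CPM, below every PBS library (-0.67 ± 0.17, adjusted p = 0.00479). At 24 h it was 393, 356, 617 and 562 CPM (-0.93 ± 0.17, adjusted p = 9.03e-05), and at 36 h 571, 572, 597 and 681 CPM (-0.60 ± 0.17, adjusted p = 0.00790), neither overlapping PBS. At 48 h Fcgr3 was 813, 751, 979 and 1054 CPM, which overlapped PBS, while Fcgr4 did not. The log2 ratio of Fcgr4 to Fcgr3 in a library was -1.12 ± 0.08 (SD, n = 4) in PBS, -0.57 ± 0.29 at 6 h, -0.55 ± 0.14 at 12 h and -1.84 ± 0.26 at 48 h.

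Fcgr1, the high-affinity receptor CD64, varied 1.93-fold between its highest and lowest group means. It was called lower at 24 h alone among KC times, at 181, 173, 264 and 211 CPM against 282 to 355 CPM in PBS (-0.60 ± 0.16, edgeR adjusted p = 0.00401), without overlap. Its 6 h libraries split by set, 221 and 251 CPM in set 1 against 436 and 347 CPM in set 2, around a change of 0.00 ± 0.16. In all 11 groups that hold both sets, the mean of Fcgr1 was higher in set 2. The same held in 9 groups for Fcgr3 and Fcer1g and in 8 for Fcgr4, whereas C3ar1 and C5ar1 were higher in set 1 in 8 of 11. The part of the set in these receptor levels was not tested beyond the values given within each set.

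Fcer1g, the chain that carries the ITAM for FCGR1, FCGR3 and FCGR4, was the steadiest member, with a 1.58-fold span between group means. It was called lower at 36 h alone among KC times, at 862, 814, 836 and 833 CPM against 1106 to 1287 CPM in PBS (-0.47 ± 0.14, edgeR adjusted p = 0.00848), without overlap. Its 24 h libraries (939, 862, 1071 and 934 CPM) also lay below every PBS library, but that change of -0.28 ± 0.14 was not called (adjusted p = 0.123).

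Some KC markers were called lower at 24 and 36 h, when Fcgr3 and Fcgr4 were too, but they differed from these genes earlier. At 6 h, when Fcgr4 was called higher, 0 of 10 KC markers were called higher and 1 lower. At 12 h, when Fcgr3 was called lower, 2 KC markers were called higher and 2 lower. Of the 10 KC markers 5 were called lower at 24 h and 6 at 36 h, and all 10 in LAM-like KCs at 36 h against PBS. Their sum was 39659 to 46579 CPM in PBS, 28361 to 39170 CPM at 24 h, 30923 to 33210 CPM at 36 h and 19324 to 21012 CPM in LAM-like KCs at 36 h. Over the 48 libraries it gave a Pearson r of 0.832 with Fcgr4, 0.827 with Fcer1g, 0.730 with Fcgr1 and 0.668 with Fcgr3, as a description of libraries that share treatments and times. With Fcgr2b the KC sum gave 0.144. The endothelial sum gave 0.728 with Fcgr4, 0.714 with Fcer1g, 0.624 with Fcgr1 and 0.779 with Fcgr3. That sum is largely Cdh5 and Stab2 (medians of 226 and 223 CPM), and Cdh5 is also in the KC sum. Whether the Fc receptor genes fell apart from other KC genes was not tested.

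**Figure D2:**
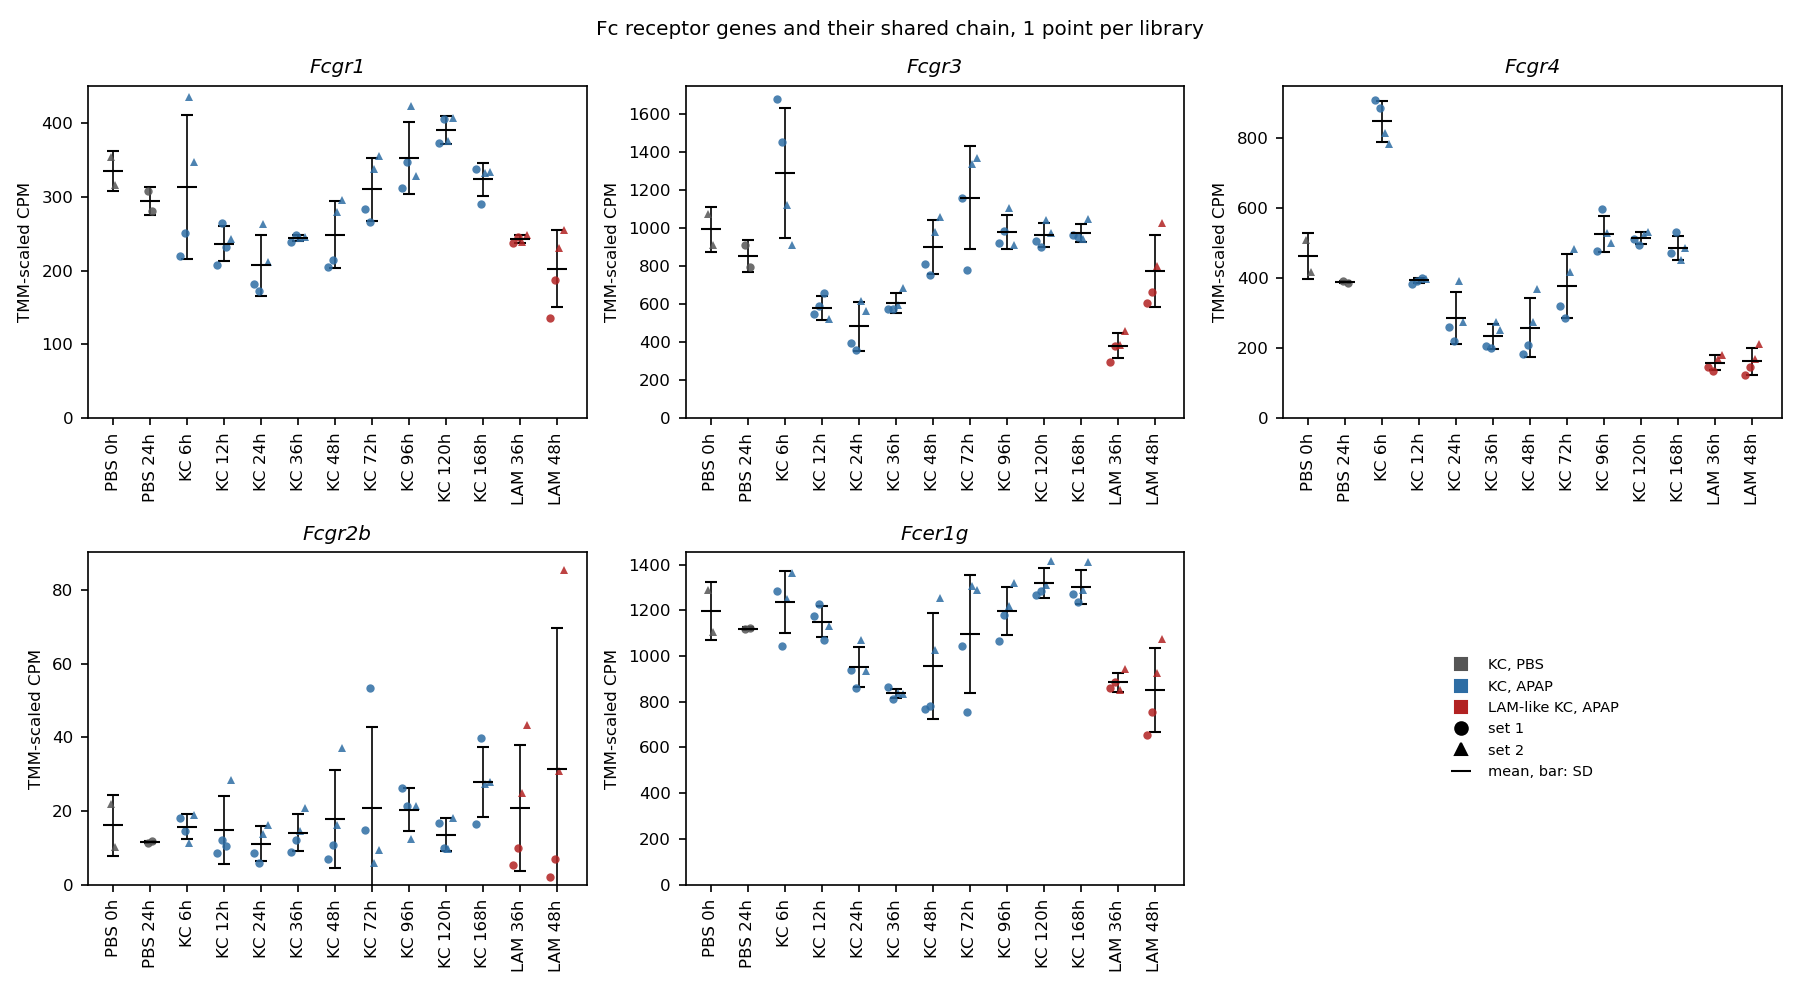
CPM of Fcgr1, Fcgr3, Fcgr4, Fcgr2b and Fcer1g in each of the 48 libraries by group, with circles for set 1, triangles for set 2 and bars for the mean ± SD of a group. Fcgr4 peaks at 6 h with 783 to 909 CPM, Fcgr3 is lowest in LAM-like KCs at 36 h, and Fcgr2b differs more within groups than between them.

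Read by time, 3 members were called higher at 6 h (C5ar1, Itgam, Fcgr4) and none lower, where 9.72% of all genes were called higher and 5.42% lower. At 12 h, 4 were called higher (C5ar1, Itgam, C3ar1, Itgb2) and 1 lower (Fcgr3), beside 12.5% and 8.09%. At 24 h, 1 was called higher (C5ar1) and 3 lower (Fcgr3, Fcgr1, Fcgr4), beside 16.0% and 10.9%. At 36 h all 5 calls were lower (Itgam, C3ar1, Fcgr4, Fcgr3, Fcer1g), beside 15.8% higher and 10.5% lower. At 48 h both calls were lower (Fcgr4, C3ar1), beside 2.46% higher and 1.21% lower. The median log2 fold change of the 9 members went from 0.46 at 6 h to 0.13, -0.28, -0.50 and -0.33 at 12, 24, 36 and 48 h, while that of all genes stayed between 0.02 and 0.04.

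When the 13 groups are put in order of their means, neighbouring groups overlapped in all 12 pairs for Itgb2, Fcgr1, Fcgr2b, Fcgr3 and Fcer1g, in 11 for C3ar1 and in 10 for C5ar1, Itgam and Fcgr4. Gaps separated KCs at 6 h from the next group in C5ar1, Itgam and Fcgr4, LAM-like KCs at 36 h from PBS 24 h in C5ar1, PBS 0 h from KCs at 12 h in Fcgr4, LAM-like KCs at 48 h from the lowest group, KCs at 36 h, in Itgam, and PBS 24 h from the lowest 2 groups, KCs at 48 and 36 h, in C3ar1.

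At 72, 96, 120 and 168 h no member was called (0 of 9 at each time, with 0 at an unadjusted p below 0.05 and 0 by DESeq2), where 1.94%, 0.158%, 0.123% and 0.0351% of all genes were called in either direction. The 72 h group was uneven, with C5ar1 at 186, 154, 120 and 474 CPM and Itgam at 18.1, 16.9, 27.3 and 63.0 CPM. Its replicate 4 was the highest in both genes, and its replicate 2 held 14781 CPM of hepatocyte markers.

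Monocyte and neutrophil markers also differed along this course. Monocyte markers summed to 291 to 451 CPM in PBS, 428 to 775 CPM at 6 h and 177 to 275 CPM at 12 h, with 1 of 8 called higher at 6 h and 3 at 12 h, and Ly6c2 near 0 throughout. Of the 7 neutrophil markers tested, 3 were called higher at 6 h and 3 at 12 h, and at 36 h 1 was higher and 2 lower, with a median log2 fold change of 1.96. Their sum, largely Csf3r, was 83.0 to 129 CPM in PBS, 84.2 to 117 CPM at 6 h, 102 to 181 CPM at 12 h and 39.6 to 62.5 CPM at 36 h, so that the sum and the median of the markers differ in direction at 36 h. Ly6g had 0 reads and S100a8 reached at most 7.41 CPM.

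With the neutrophil sum as a covariate, edgeR called 0 members at 36 h, 0 at 48 h and 1 at 24 h, in place of 5, 2 and 4. Over all genes it called 604, 128 and 1990 in place of 4480, 627 and 4601. The 36 h log2 fold changes were then -1.07 for Itgam (adjusted p = 0.177), -0.79 for C3ar1 (0.0502), -0.77 for Fcgr4 (0.0669), -0.48 for Fcgr3 (0.348) and -0.16 for Fcer1g (0.760). The neutrophil sum, largely Csf3r, was 39.6 to 62.5 CPM in KCs at 36 h and 57.3 to 68.1 CPM at 24 h. Both groups lay below every PBS library (83.0 to 129 CPM), so at these times the fit cannot part the sum from the group. The part of monocytes or neutrophils in the levels of the members was not tested.

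**Figure D3:**
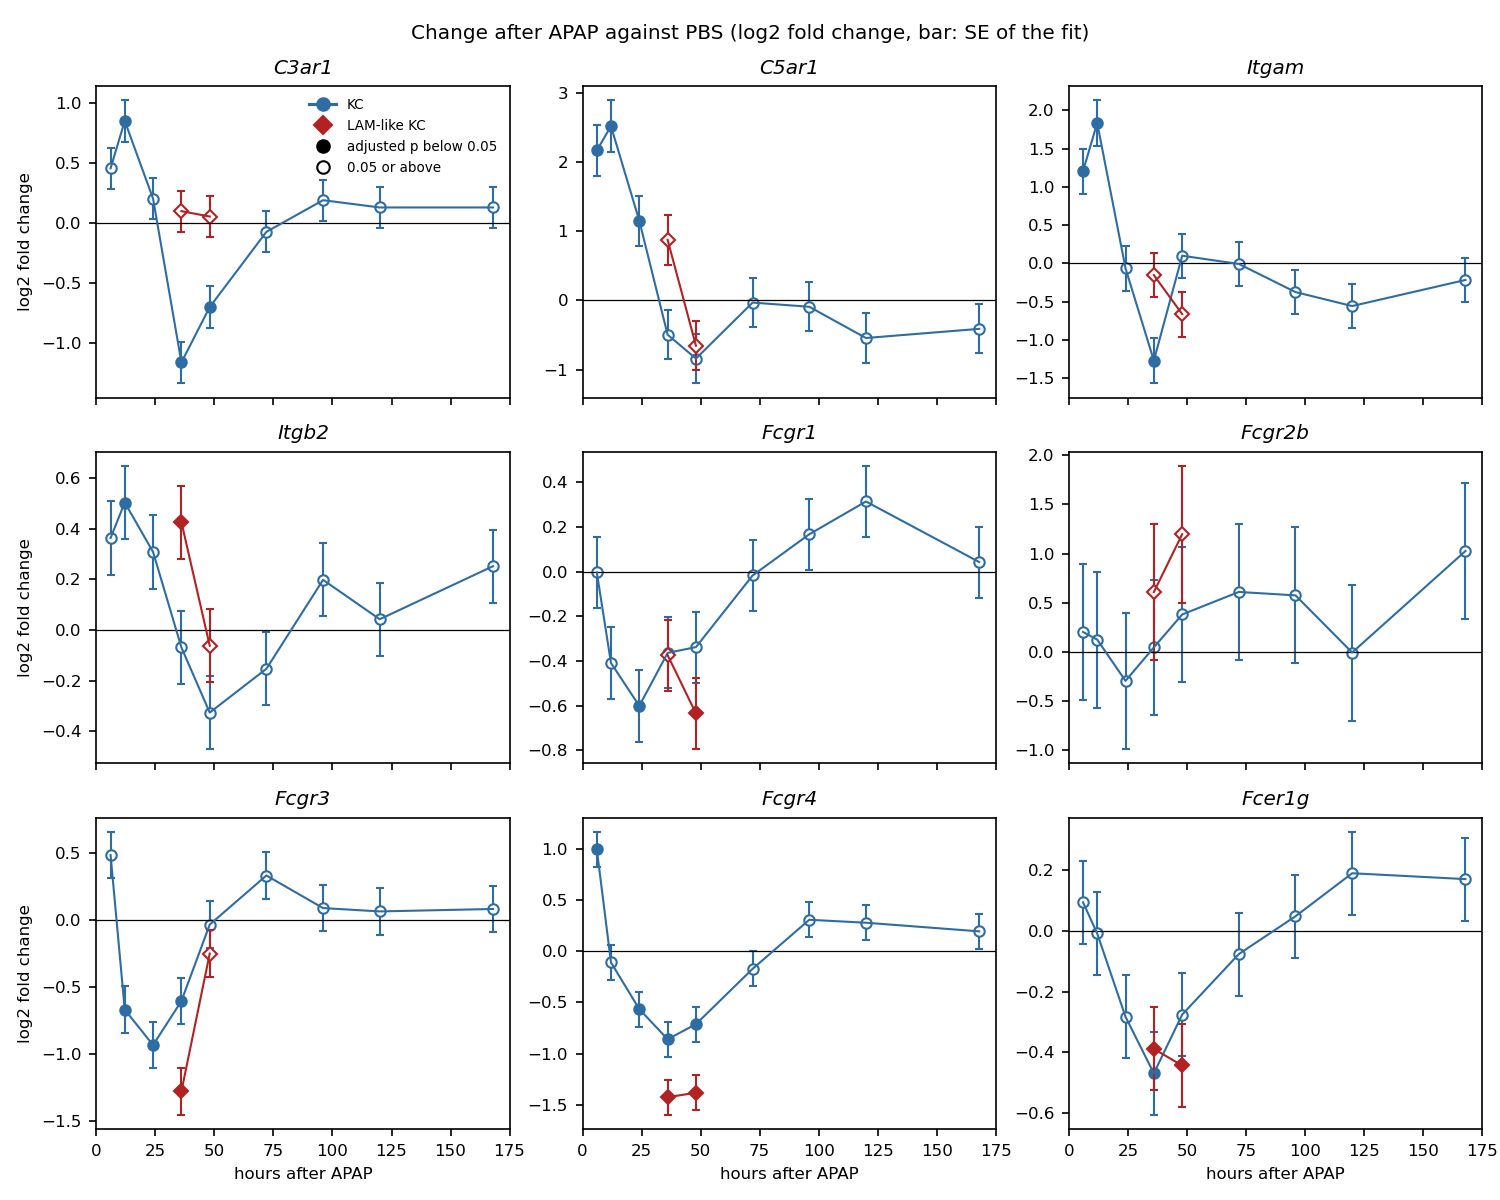
Log2 fold change against PBS of each of the 9 genes over hours after APAP, in KCs (blue) and LAM-like KCs (red), with bars for ± SE and filled points where the edgeR adjusted p is below 0.05. C5ar1 and Itgam are higher at 6 and 12 h, while Fcgr3 is already lower at 12 h. C3ar1, Itgam, Fcgr3 and Fcgr4 are lower at 36 h in KCs, and no point is filled after 48 h.

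LAM-like KCs at 36 h held more C3ar1, C5ar1 and Itgam and less Fcgr3 than KCs of that time. C3ar1 was 545, 505, 447 and 423 CPM against 219, 214, 174 and 196 CPM, with no overlap (log2 fold change 1.26 ± 0.17, edgeR adjusted p = 1.05e-05; 1.26 in set 1 and 1.23 in set 2). C5ar1 was 562, 404, 394 and 394 CPM against 228, 158, 143 and 147 CPM (1.37 ± 0.36, adjusted p = 0.0340; 1.31 in set 1 and 1.44 in set 2, the latter with adjusted p = 0.143). Itgam was 32.1, 28.0, 26.6 and 26.7 CPM against 14.3, 13.5, 12.4 and 12.1 CPM (1.12 ± 0.30, adjusted p = 0.0341; 1.1 and 1.12 within the sets). In all 3 genes the LAM-like libraries lay above every KC library.

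Fcgr3 went the other way, at 297, 380, 382 and 458 CPM in LAM-like KCs against 571, 572, 597 and 681 CPM in KCs (-0.67 ± 0.17, edgeR adjusted p = 0.0279; -0.77 in set 1 and -0.61 in set 2). Fcgr4 was 146, 134, 170 and 181 CPM against 207, 199, 275 and 253 CPM, also without overlap, at -0.57 ± 0.17 and an adjusted p of 0.0770. With the replicate number as a block, which matches these libraries by their labels, Fcgr4 was called at -0.57 with an edgeR adjusted p of 0.0256. Fcgr1 (243 against 244 CPM on average) and Fcer1g (884 against 836 CPM) overlapped between the populations.

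Of the 9 genes 3 were thus higher and 1 lower, where 0.773% of all genes were higher and 1.11% lower. In the fit without a block, used also for the runs below, that comparison was near the threshold for all but C3ar1. With the replicate block the edgeR adjusted p was 0.0172 for C5ar1, 0.0337 for Itgam and 0.0124 for Fcgr3. With each of the 8 libraries left out in turn, C3ar1 was called 8 times, C5ar1 and Fcgr3 in 2 runs each, and Itgam in none, although its fold change stayed between 1.05 and 1.16. C5ar1 ranged from 1.23 without LAM-like KC 36 h replicate 1 (adjusted p = 0.136) upward, and was called without KC 36 h replicate 1 or LAM-like KC 36 h replicate 2. Fcgr3 reached -0.57 without LAM-like KC 36 h replicate 1 (adjusted p = 0.165), and was called without KC 36 h replicate 1 or LAM-like KC 36 h replicate 4. Monocyte markers summed to 84.5 CPM on average in LAM-like KCs at 36 h and 335 CPM in KCs, with 2 of 8 called lower, and KC markers to 20187 against 32327 CPM, with 6 of 10 called lower. Endothelial markers summed to 379 against 489 CPM, with 3 of 10 called lower and 0 higher, although their median log2 fold change was 0.50. With the endothelial sum as a covariate C3ar1 was the 1 member called (1.08, adjusted p = 0.000186), and 154 genes were called in all in place of 322. Itgam was then 0.96 (adjusted p = 0.208), C5ar1 0.90 (0.293) and Fcgr3 -0.39 (0.273). The endothelial sum did not overlap between the populations (313 to 445 against 461 to 502 CPM), so this covariate cannot be parted from the group. The part of other cells in these differences was not tested.

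Set against PBS, LAM-like KCs at 36 h overlapped in C3ar1 and Itgam. Their C3ar1 differed from PBS by 0.10 ± 0.17 and their Itgam by -0.15 ± 0.29 in log2 fold change, neither called. C5ar1 was above every PBS library at 0.88 ± 0.36, with an edgeR adjusted p of 0.0518. Itgb2 was higher (741, 671, 682 and 673 CPM; 0.43 ± 0.14, adjusted p = 0.0177). Fcgr3 (-1.28 ± 0.18, adjusted p = 2.71e-07), Fcgr4 (-1.43 ± 0.17, adjusted p = 2.31e-08) and Fcer1g (-0.39 ± 0.14, adjusted p = 0.0223) were lower, and the LAM-like libraries of these 3 genes lay below every PBS library. The call of Itgb2 was lost without PBS 24 h replicate 1 (0.41, adjusted p = 0.0577) or PBS 0 h replicate 2 (0.42, 0.0555), and that of Fcer1g without PBS 0 h replicate 1 (-0.34, 0.0847) or LAM-like KC 36 h replicate 3 (-0.37, 0.0552). In this comparison 20.3% of all genes were called higher and 16.4% lower.

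At 48 h C3ar1 and Fcgr4 were called between the populations. C3ar1 was 455, 475, 439 and 494 CPM in LAM-like KCs against 327, 270, 214 and 295 CPM in KCs, with no overlap (0.75 ± 0.17, edgeR adjusted p = 0.0108; 0.65 and 0.88 within the sets). Fcgr4 was 124, 145, 169 and 212 CPM against 182, 208, 275 and 370 CPM, overlapping (-0.67 ± 0.17, adjusted p = 0.0239). These are 1 member higher and 1 lower, where 1.14% of all genes were higher and 1.37% lower. Without KC 48 h replicate 3 the C3ar1 call was lost (0.65, adjusted p = 0.0680). The Fcgr4 call was lost without KC 48 h replicate 3 (-0.64, adjusted p = 0.0719) or 4 (-0.45, 0.233) or LAM-like KC 48 h replicate 1 (-0.56, 0.138) or 2 (-0.62, 0.0903).

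Itgam at 48 h was not called between the populations. LAM-like KCs held 14.8, 16.1, 28.1 and 20.7 CPM against 29.5, 36.0, 34.3 and 35.5 CPM in KCs, without overlap (-0.76 ± 0.29, edgeR adjusted p = 0.183). At 36 h its LAM-like libraries had been the higher ones. The difference between the 2 times was tested as an interaction and gave -1.88 ± 0.42 with an adjusted p of 0.284. No member passed that test (0 of 9, and 0 by DESeq2), where 0.00585% of all genes did, both at an adjusted p below 0.05. At an unadjusted p below 0.05 there were 3 of 9, with no share of all genes to set beside them. Fitted on the 4 groups concerned alone, Itgam passed at the same size with an adjusted p of 0.00205, and within set 1 alone at -2.17 with 0.0384.

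**Figure D4:**
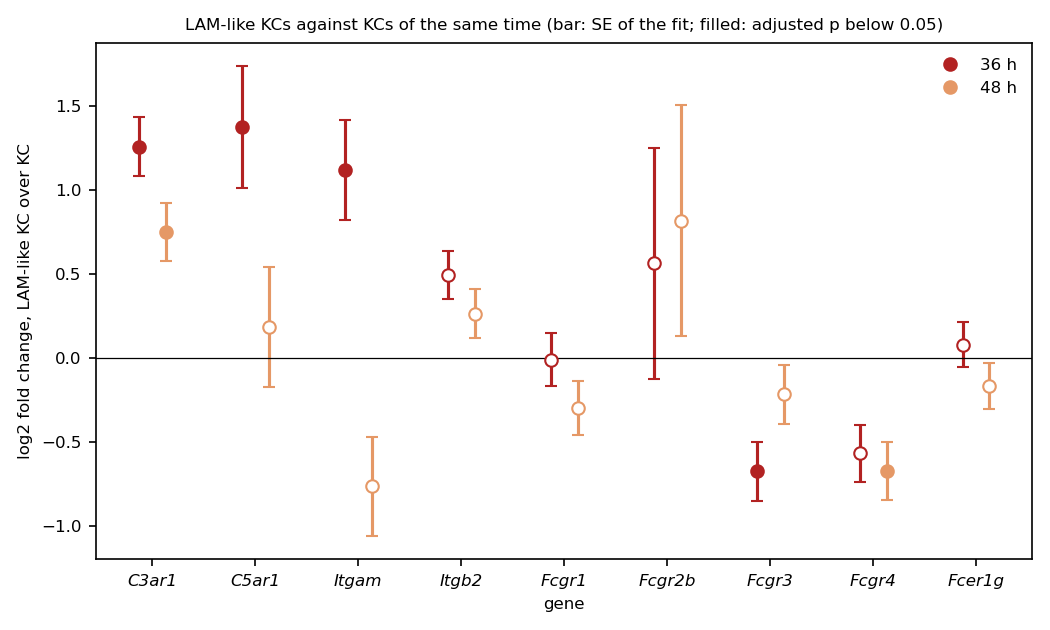
Log2 fold change of LAM-like KCs against KCs of the same time for each of the 9 genes at 36 h and 48 h, with bars for ± SE and filled points where the edgeR adjusted p is below 0.05. C3ar1 is higher at both times, Itgam stands at 1.12 at 36 h and -0.76 at 48 h, and Fcgr4 lies below 0 at both.

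Within the LAM-like population, Fcgr3 was 606, 663, 800 and 1027 CPM at 48 h, above every 36 h library (1.03 ± 0.18, edgeR adjusted p = 5.22e-05). C5ar1 fell to 159, 219, 113 and 114 CPM (-1.53 ± 0.36, adjusted p = 0.00288) and Itgb2 to 439, 479, 480 and 575 CPM (-0.49 ± 0.14, adjusted p = 0.0168), neither overlapping 36 h. Without LAM-like KC 48 h replicate 1 the Itgb2 change was -0.44 (adjusted p = 0.0557). Those are 1 higher and 2 lower of 9, where 5.56% of all genes were higher and 8.68% lower. Fcgr4 was 163 against 158 CPM on average, and its log2 ratio to Fcgr3 reached -2.25 ± 0.04 (SD, n = 4), from -1.26 ± 0.21 at 36 h. Against PBS, LAM-like KCs at 48 h held less Fcgr4 (-1.38 ± 0.17, adjusted p = 2.28e-07), Fcgr1 (-0.63 ± 0.16, adjusted p = 0.00345) and Fcer1g (-0.44 ± 0.14, adjusted p = 0.0169) and more of none of the 9, beside 11.2% of all genes called higher and 9.53% lower. The Fcer1g call was lost without PBS 24 h replicate 1 (-0.42, adjusted p = 0.0599) or 2 (-0.42, 0.0552), PBS 0 h replicate 1 (-0.36, 0.0979) or LAM-like KC 48 h replicate 1 (-0.34, 0.106) or 2 (-0.39, 0.0657).

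Itgax separated the populations at both times. It was 47.8 ± 12.7 CPM (SD, n = 4) in LAM-like KCs at 36 h and 17.8 ± 6.81 CPM at 48 h, against 11.9 ± 3.26 and 5.27 ± 3.10 CPM in KCs (2.01 ± 0.47 and 1.75 ± 0.48, edgeR adjusted p = 0.0130 and 0.0361). The log2 ratio of Itgam to Itgax was -0.72 ± 0.29 in LAM-like KCs at 36 h. Since Itgam may be understated by its shared exons, this ratio gives no order of the 2 chains. Vsig4 was not called between the populations (0.11 ± 0.15 and 0.07 ± 0.15).

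Fcgr2b, the inhibitory receptor, was called in no comparison, and its libraries disagreed within groups. LAM-like KCs at 48 h held 2.14, 7.02, 30.7 and 85.5 CPM, LAM-like KCs at 36 h 5.29, 9.99, 24.9 and 43.2 CPM and KCs at 72 h 14.9, 53.3, 5.99 and 9.39 CPM. PBS libraries held 21.9 and 10.2 CPM at 0 h and 11.4 and 11.8 CPM at 24 h. Clec4g, a lectin of liver sinusoidal endothelial cells, was 3.19, 6.39, 21 and 77.9 CPM in the same LAM-like libraries at 48 h, 5.29, 7.77, 24.2 and 37.0 CPM in those at 36 h and 16.2, 71.0, 5.69 and 8.80 CPM in KCs at 72 h, which is the order of Fcgr2b in each group.

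Over the 48 libraries, the log2 CPM of Fcgr2b followed 6 of 10 endothelial markers with a Pearson r of at least 0.5, namely Oit3 (0.911), Clec4g (0.896), Gpihbp1 (0.891), Kdr (0.884), Egfl7 (0.839) and Ptprb (0.810). The other 4 were Lyve1 (0.321), Pecam1 (0.295), Stab2 (0.147) and Cdh5 (-0.033), the last of which is also a KC marker. B cell markers gave r from 0.181 to 0.377 and KC markers from -0.049 to 0.271. Of the summed marker lists, that of mast cells and basophils (at most 12.4 CPM, 1 of 5 genes tested) gave 0.743, that of dendritic cells (at most 15.5 CPM) 0.550 and the endothelial sum 0.497. These are descriptions over libraries that share treatments and times. The log2 ratio of the summed activating receptors to Fcgr2b was 6.97 ± 0.37 (SD, n = 4) in PBS and spread from 4.13 to 8.66 in LAM-like KCs at 48 h. With the summed endothelial markers as a covariate, Fcgr2b in LAM-like KCs at 36 h against PBS moved from 0.61 (edgeR adjusted p = 0.532) to 2.61 (adjusted p = 0.00339). That sum is largely Cdh5 and Stab2 (medians of 226 and 223 CPM), which did not follow Fcgr2b. It also did not overlap between these LAM-like KCs (313 to 445 CPM) and PBS (550 to 722 CPM). The fit therefore cannot show whether Fcgr2b changed apart from endothelial RNA.

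**Figure D5:**
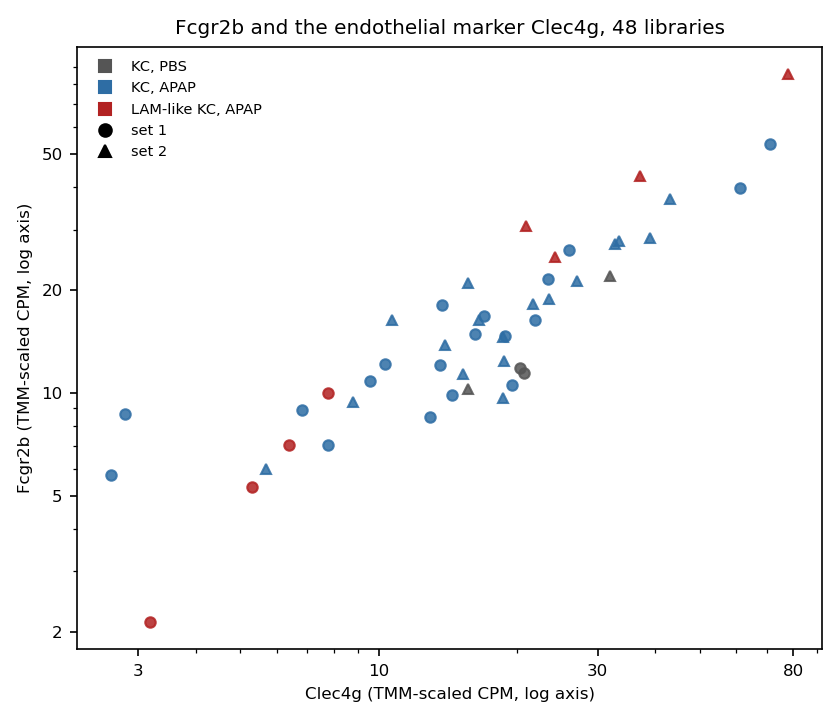
Fcgr2b against the endothelial marker Clec4g in the 48 libraries, both in CPM on log axes, with circles for set 1, triangles for set 2 and colours for KCs after PBS, KCs after APAP and LAM-like KCs. The points rise together from about 2 to 86 CPM of Fcgr2b, and the LAM-like libraries at 48 h span that whole range.

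Genes of the same receptor systems were counted from lists that name them by role. Their counts stand beside the shares of all genes called, which were 9.72% higher and 5.42% lower at 6 h, 12.5% and 8.09% at 12 h, and 15.8% and 10.5% at 36 h. Among 18 tested complement receptors and regulators other than the members, 5 were called higher and 0 lower at 12 h, and 3 higher and 5 lower at 36 h. The largest rises at 12 h were those of Cd93 (2.82 ± 0.68) and Itgax, and at 36 h those of Itgax and C1qbp (1.24 ± 0.19), which binds C1q. Among those lower at 36 h was Itgal (-0.79 ± 0.17), the alpha chain of LFA-1. The list's median log2 fold change was -0.05 at 12 h and -0.41 at 36 h, beside 0.02 for all genes at each time.

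Complement components, among them the precursors of C3a and C5a, were lower where they were called. Of 23 tested complement component genes none was called higher at any time from 6 to 48 h in KCs, and 2, 4, 13, 12 and 5 were lower at 6, 12, 24, 36 and 48 h. In LAM-like KCs 21 of the 23 were lower than PBS at 36 h. Among them were the terminal component C6 (-4.43 ± 0.32), which is also on the list of KC markers, and the mannose-binding lectin Mbl2 (-3.37 ± 0.60). C3, the precursor of C3a, was -1.36 there, and Hc, the gene of C5, was -1.77 in KCs at 24 h, both called. Hepatocytes make most circulating complement, and the summed hepatocyte markers were 1335 to 2738 CPM in PBS, 648 to 920 CPM at 24 h and 308 to 707 CPM in LAM-like KCs at 36 h, with 10 of 10 markers called lower in the last. The part of hepatocyte RNA in the component genes was not tested.

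Of 5 tested genes for other receptors that pair with the Fcer1g chain, 3 were called higher at 6 h and 3 at 12 h, led by the C-type lectins Clec4e (4.92 ± 1.18 and 5.70 ± 1.22) and Clec4d (5.03 ± 0.50 and 4.98 ± 0.50), while Fcer1g changed by 0.09 and -0.01. Between LAM-like KCs and KCs at 36 h, Clec4d was higher (1.89 ± 0.43), and Clec4n (-1.15 ± 0.19) and Pira2 (-1.0 ± 0.22) were lower. Among the 7 other Fc receptor genes tested, 1 was called higher and 3 lower at 36 h, including Fcgrt, the neonatal Fc receptor that recycles IgG. Fcgrt was already lower at 12 h (-0.91 ± 0.18), 24 h (-1.03 ± 0.18) and 36 h (-0.86 ± 0.18) and in LAM-like KCs at 36 h (-1.34 ± 0.18 against PBS).

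Of 20 ITAM signalling genes tested, 7 were called higher and 1 lower at 6 h, and 9 higher and 0 lower at 12 h. Pik3r5 (1.51 ± 0.28), a regulatory subunit of PI3-kinase gamma, and Vav3 (0.94 ± 0.23) led at 6 h, and Blnk (1.27 ± 0.44) and the Src family kinase Fgr (1.12 ± 0.18) at 12 h. At 36 h none was higher and 5 were lower, led by Pik3r5 (-1.09 ± 0.28) and the kinase Syk (-0.75 ± 0.14). Of 17 genes for inhibitory receptors and phosphatases, 5 were higher and 1 lower at 12 h and 0 higher and 7 lower at 36 h. Among those were Lilrb4a (1.31 ± 0.29 at 12 h), Pirb (-1.89 ± 0.20 at 36 h) and the adaptor Dok3 (-0.41 ± 0.14 at 12 h and -1.16 ± 0.14 at 36 h). Medians for the ITAM list were 0.32 at 12 h and -0.28 at 36 h, and for the inhibitory list 0.28 and -0.36, beside 0.02 for all genes, so both lists had the same sign at each time. Tyrobp, the other ITAM chain of macrophages, was lower at 24 h (-0.49 ± 0.16) and in LAM-like KCs at 36 h against PBS (-0.57).

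On the list of other chemoattractant receptors and their signalling proteins, the largest rises were those of Ccr1 (3.86 ± 0.81 at 6 h and 3.45 ± 0.80 at 12 h) and Cxcr4 (2.86 ± 0.69 and 3.55 ± 0.70). Of 13 genes, 4 were called higher at 6 h and 5 at 12 h, with list medians of 0.23 and 0.38. At 36 h 0 were higher and 5 lower, among them the formyl peptide receptor Fpr1 (-0.80 ± 0.20). C5ar2, the second C5a receptor, was -0.64 at 36 h, also called. The phagocyte oxidase, which Fc receptors and complement receptor 3 can activate, had 4 of 6 genes lower at 36 h, among them Ncf1 (-1.18 ± 0.15) and Ncf4 (-0.97 ± 0.18). Among 12 genes of integrin activation and ligands, 3 were higher at 12 h, including Icam1 (1.45 ± 0.28), a ligand of beta2 integrins, and at 36 h 1 was higher and 2 lower, near the shares of all genes, with a list median of -0.18.

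The genes whose log2 CPM over the 48 libraries was most like that of a member were taken from 9226 genes with at least 10 CPM in some group. For C5ar1 they were Itga5 (r = 0.918), the fibronectin receptor's alpha chain, and Tmbim1 (0.918). For C3ar1 they were Ptpre (0.878) and Cxcl16 (0.832), for Itgam Ube2f (0.836) and Emilin2 (0.816), and for Itgb2 Msn (0.774) and Fxyd5 (0.763). Fcgr1 was closest to Oas1g (0.885) and Oas1a (0.879), both interferon-stimulated genes. Fcgr3 was closest to Tnfaip8l2 (0.926) and Ypel5 (0.921), Fcgr4 to Cpq (0.931) and the MHC class I gene H2-D1 (0.921), and Fcer1g to Ctss (0.938) and C1qc (0.924). Fcgr2b was closest to Tspan7 (0.919) and Aqp1 (0.919). Among the members, the closest pairs were Fcgr4 with Fcer1g (0.831), Fcgr1 with Fcer1g (0.779) and C5ar1 with Itgam (0.777), while C5ar1 and Fcgr3 gave -0.26. The libraries share treatment, time and set, so these values describe likeness only.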

How the data were processed

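Liver KCs and LAM-like KCs of 13 groups were profiled by RNA-seq in 48 libraries. The authors deposited whole-number counts of reads per gene, 1 file per library. Per the submitters' processing notes, reads were handled with HISAT2 2.2.0, featureCounts 2.0.0, SAMtools 1.10 and FastQC 0.11.9 on the build mm10. The strand setting, the annotation and the treatment of reads that match several genes are not given in the sources used here, so reads of overlapping genes cannot be told apart. Of symbols in the files, 98.85% were found in GENCODE M21. Single-cell and spatial data of the series were not used here.

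Counts were scaled by TMM (factors 0.802 to 1.11), filtered with filterByExpr and fitted with edgeR 4.0.16 (glmQLFit, robust, 1 coefficient per group, 35 residual degrees of freedom) in R 4.3.3. PBS is the equal-weight mean of the PBS 0 h and PBS 24 h coefficients. All tests were 2-sided, with Benjamini-Hochberg adjustment over all genes tested, and SE is the size of the log2 fold change over the square root of F. The sets follow the sample numbers of the column headers, cut as in earlier work on these files. The headers give PBS 0 h the replicate numbers 3 and 4 where the labels give 1 and 2. Alternatives were DESeq2 1.42.0, its scaling, no filter, each PBS group alone, a replicate block, the set as a covariate or alone, marker sums as covariates (the endothelial one was added after seeing the data), only the groups compared, and each library left out. Motifs were counted in RefSeq promoter windows, and likeness used log2 CPM with a prior count of 2. The fit was tested on simulated data. Figures were drawn with matplotlib 3.10.9 in Python 3.11.15.

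Labels give LAM-like KCs and KCs the same replicate numbers. Deviations of same-numbered libraries from their group means correlated at 0.126 to 0.191 at 36 h and 0.189 to 0.350 at 48 h. Differently numbered libraries gave -0.156 to 0.126 at 36 h and -0.241 to 0.163 at 48 h. Same-numbered libraries also share the set, so these values cannot tell pairing from set. The numbers were taken to pair these samples in the replicate block only. Against PBS fewer numbers are shared and they were not taken to pair. The members and the gene lists were chosen with earlier results of these data known. Named were all 9 members, for each the 2 most alike genes, from each list the 2 called rises and falls with the largest change (some are not reported here), and Itgax, Vsig4, C3, Hc, Tyrobp, Fcgrt and C5ar2; Clec4g and the other markers come from the marker lists.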

Additional observations from a re-analysis of the deposited data

Results flagged for a closer look

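In groups of 4 libraries, 5 of 99 combinations of gene and group had 1 library far from the other 3 by Dixon's test, and chance flags about 1 in 20. C5ar1 was 562 CPM in LAM-like KC 36 h replicate 1, where the others held 394 to 404 CPM. Itgb2 was 741 CPM in that same library, against 671 to 682 CPM. KC 168 h replicate 2 had 767 CPM of Itgb2, against 551 to 581 CPM, and 291 CPM of Fcgr1, against 333 to 338 CPM. Fcgr3 was 1044 CPM in KC 168 h replicate 4, against 943 to 960 CPM.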

How the results depend on the processing

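Of 3141 alternative values of 144 fold changes, 2817 stayed called in the same direction, or stayed uncalled within 1 SE whatever their sign. Of the others, 112 lost the call, 81 gained one, 131 uncalled values moved by more than their error and 0 reversed a called direction. Counts of members called that moved by more than 1.5 times were as follows. KCs at 6 h gave 5 with the block by header numbers, the set covariate and the endothelial covariate. KCs at 12 h gave 2 in set 2 alone. KCs at 24 h gave 1 with PBS 24 h alone, 2 in set 2 alone, and 1 with the neutrophil and 1 with the endothelial covariate. KCs at 36 h gave 3 with PBS 24 h alone and 0 with the neutrophil covariate. KCs at 48 h gave 4 with the replicate block, 1 with PBS 0 h alone, 0 with PBS 24 h alone, 1 in set 2 alone, 0 with the neutrophil covariate and 1 on only the groups compared. KCs at 72 h gave 2 in set 1 alone. LAM-like KCs against KCs gave 2 at 36 h with no filter and 1 with the endothelial covariate, and at 48 h 1 with the endothelial covariate, 1 on only the groups compared and 0 without both libraries numbered 4. The change of that difference gave 1 in set 1 alone, 1 with the hepatocyte covariate and 1 on only the groups compared. LAM-like KCs at 36 h against PBS gave 2 with the neutrophil covariate. Among smaller moves, KCs at 36 h gave 7 in place of 5 on only the groups compared, KCs at 24 h 6 in place of 4 in set 1 alone, LAM-like KCs against KCs at 36 h 6 in place of 4 by DESeq2 and on only the groups compared, and LAM-like KCs at 36 h against PBS 6 in place of 4 by DESeq2, with either block, with the set covariate and on only the groups compared. These are counts of members only, and the fits also differed in how many of all genes they called. For KCs at 6 h that was 2586 as reported and 3127 by DESeq2. A change in a count of members therefore does not by itself tell the members from all genes. The causes were not tested.

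With each library left out, the counts ranged from 3 to 4 at 6 h, 4 to 5 at 12 h, 2 to 4 at 24 h, 5 to 5 at 36 h and 1 to 2 at 48 h, and were 0 later. For LAM-like KCs against KCs they ranged from 1 to 3 at 36 h and 0 to 2 at 48 h, with 0 for the change of the difference. Against PBS they ranged from 3 to 4 at 36 h and 2 to 3 at 48 h, and between the LAM-like times from 2 to 3. The replicate block changed 1 other call between the populations, that of Fcgr4 at 36 h. Of 117 group levels, 113 under RLE scaling and 100 unscaled stayed within 1 SD. Fcgr2b at 2.14 CPM and Itgam rest on the fewest reads.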
